A study of Mus musculus with 26 samples.

Results

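The miR-7 family of the mouse comprises 5 mature microRNAs (miRNAs) cut from 3 hairpins: mmu-miR-7a-5p, mmu-miR-7b-5p, mmu-miR-7a-1-3p, mmu-miR-7a-2-3p and mmu-miR-7b-3p, written below without the species prefix. They were taken by name from a count table of 1915 mature miRNA entries, and all 5 were among the 605 miRNAs that passed a filter on low counts. Small RNA was sequenced from CA1, a hippocampal field on which spatial memory depends, in 26 libraries of 3 groups. The first group was 10 libraries of transgenic mice given Vorinostat, an inhibitor of histone deacetylases, in their drinking water. The second was 7 libraries of transgenic mice given vehicle, and the third was 9 libraries of wild type littermates given vehicle. The transgenic animals were CamkdeltaC mice, known as a heart failure model that overexpresses the cytosolic splice variant of CaM kinase II delta; the promoter of the transgene is not stated in the labels. Treatment began at 2 months of age and lasted 4 weeks, so that all groups were 3 months old, and both sexes were included without a label for each animal. Since the labels do not tie each library to its own animal, a p-value here reflects spread among libraries, which may be technical.

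miRNAs guide Argonaute proteins to messenger RNAs through bases 2 to 8 of the mature strand, the seed. The 5p arms of the miR-7 hairpins are the strands that Argonaute keeps, while the 3p arms are passenger strands that are mostly degraded. In the brain miR-7 is enriched in neurons and neuroendocrine cells, represses the messenger of alpha-synuclein, is bound at many sites by the circular RNA Cdr1as and is degraded through a site in the long noncoding RNA Cyrano.

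The mature sequences are shown because they determine which members share targets and which reads can be told apart. They were taken from RefSeq on GRCm38.p6, with the seed in capitals.
miR-7a-5p: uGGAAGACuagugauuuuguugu
miR-7b-5p: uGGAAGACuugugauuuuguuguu
miR-7a-1-3p: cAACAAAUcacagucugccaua
miR-7a-2-3p: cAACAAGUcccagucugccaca
miR-7b-3p: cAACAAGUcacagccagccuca

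The family thus carries 3 seeds. GGAAGAC stands in miR-7a-5p and miR-7b-5p and in no other of 1679 mature miRNAs in the RefSeq table. AACAAGU is shared by miR-7a-2-3p and miR-7b-3p alone, and AACAAAU occurs only in miR-7a-1-3p. Over the length they share, the 5p arms differ by 1 substitution, A10U (miR-7a-5p base first, counted from 1 at the 5′ end), and miR-7b-5p is 24 bases long against 23 for miR-7a-5p. Reads assigned to these arms could therefore be mixed, depending on the counting rules, for which no label or header gives details. The 3p arms of miR-7a differ at 3 positions (A7G, A10C and U21C, miR-7a-1-3p base first). The change at position 7 lies in the seed.

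The same miR-7a-5p is cut from 2 loci, whereas each 3p arm names its own hairpin. The hairpins follow, with both mature arms in capitals.
Mir7-1: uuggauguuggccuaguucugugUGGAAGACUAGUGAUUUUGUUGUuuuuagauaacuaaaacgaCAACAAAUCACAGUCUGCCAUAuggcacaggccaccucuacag
Mir7-2: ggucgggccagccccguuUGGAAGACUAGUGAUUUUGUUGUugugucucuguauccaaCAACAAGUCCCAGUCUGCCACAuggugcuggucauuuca
Mir7b: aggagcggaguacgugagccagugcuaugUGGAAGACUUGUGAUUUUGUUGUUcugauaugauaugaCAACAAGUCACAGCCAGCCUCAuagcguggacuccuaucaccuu

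Mir7-1 lies at chr13:58392779-58392886 on the minus strand. It falls in an intron of Hnrnpk, which encodes a nuclear RNA-binding protein and is transcribed from the same strand: 12 annotated Hnrnpk transcripts span the hairpin and 0 of their exons overlap it. Mir7-2 lies at chr7:78888277-78888373 on the plus strand, outside any other annotated gene and 7481 bases from Aen, an exonuclease gene. Mir7b lies at chr17:56242988-56243098 on the plus strand, 183 bases from the noncoding RNA gene AC026385.1. miR-7a-5p itself is at chr13:58392841-58392863 and chr7:78888295-78888317, miR-7b-5p at chr17:56243017-56243040, miR-7a-1-3p at chr13:58392800-58392821, miR-7a-2-3p at chr7:78888335-78888356 and miR-7b-3p at chr17:56243055-56243076.

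Total miRNA counts ranged from 0.585 to 24.8 M (mega-counts) per library. Wild type vehicle replicate 1, with 0.585 M, and Vorinostat replicate 8, with 3.89 M, stood apart on the first principal component of all miRNAs. Their scores were -65.2 and -25.8, against -12.4 to 13.99 in the other libraries. Several results are therefore given without them too, but not all. Comparisons of same-numbered libraries below keep Vorinostat replicate 8, and the shares of the miR-7a 3p arms keep both. The column headers of the counts name 2 lanes, L001 and L002, with 13 libraries each. The 6 listed neuronal miRNAs (among them miR-128-3p, miR-9-5p and miR-124-3p) summed to a median of 397596 counts per 1000000 (CPM, with library totals adjusted by TMM factors) with Vorinostat, 348839 in transgenic vehicle and 351312 in wild type vehicle. Most of that sum is miR-128-3p and miR-9-5p; 2 of the 6 were higher and 4 lower with Vorinostat than with vehicle (median log2 difference -0.10), and 0 passed. No listed marker of neurons, glia, vessels or blood was at 0 reads in all libraries of a group. In bulk tissue, fewer cells of a type and less RNA per cell cannot be told apart.

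The family was abundant and stemmed almost wholly from its 5p arms. It took 2.89 ± 0.703% of all counts (SD, n = 26), with a range from 1.60 to 4.53%, and at least 99.7% of its reads were of 5p arms in each library. miR-7a-5p supplied 88.1% of the family's reads when all libraries were pooled. It was the 9th most abundant of 605 miRNAs, with a mean of 25987 CPM over all libraries. miR-7b-5p ranked 37th with 3259.7 CPM. The passenger strands were far lower: miR-7a-1-3p averaged 16.3 CPM (rank 298), miR-7a-2-3p 13.8 CPM (rank 307) and miR-7b-3p 1.26 CPM (rank 530, 424 reads in all libraries together).

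Members also differed in how much they varied between libraries. Variation between libraries within groups, which may be technical, was by the edgeR coefficient 0.236 for miR-7b-5p, 0.309 for miR-7a-2-3p and 0.319 for miR-7a-5p. It was 0.459 for miR-7b-3p and 0.538 for miR-7a-1-3p, against a median of 0.380 over all 605 miRNAs. The largest spread of the 5 was therefore that of the Mir7-1 passenger strand, whose Mir7-2 counterpart has a like abundance.

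The genotype comparison asked how transgenic mice differ from wild type littermates, both on vehicle. No member passed the test in either direction: the guide strands lay somewhat lower in transgenic vehicle, by less than the spread between libraries, and the passenger strands showed no common direction. By sign of the log2 difference, 2 members were higher and 3 lower, against 54.4% higher and 45.6% lower of all miRNAs. Passing means an edgeR adjusted p under 0.05, and 0 of all 605 miRNAs (0%) passed; 13 (2.15%) had an unadjusted p under 0.05, none of them a member. DESeq2 called 0 (18 unadjusted) and limma voom 0 (7 unadjusted).

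miR-7a-5p, the main guide strand, ranged from 12449.9 to 28336 CPM with a median of 23999.7 in transgenic vehicle, and from 14568 to 51869 CPM with a median of 25188 in wild type vehicle. Transgenic vehicle averaged 22548 ± 5001 CPM (SD, n = 7) and wild type 27388 ± 11036 CPM (SD, n = 9). Replicate 1, the shallow library, held the highest wild type value, and the groups overlapped. The log2 difference, transgenic minus wild type, was -0.28 (SE 0.22, 95% interval -0.73 to 0.17, edgeR adjusted p = 0.98). Without wild type vehicle replicate 1 it was -0.12. Within lanes it was -0.27 in L001 and 0.00559 in L002.

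miR-7b-5p, which has the same seed and so the same predicted targets, gave 2083 to 4163 CPM with a median of 3096 in transgenic vehicle, against 2701 to 4631 CPM with a median of 3106 in wild type vehicle. The medians were nearly equal and the ranges overlapped. Its log2 difference was -0.12 (SE 0.15, 95% interval -0.43 to 0.20, edgeR adjusted p = 0.98), with -0.05 within L001 and -0.03 within L002. The interval leaves room for small changes in either direction, so it does not show that the level was the same.

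Of the passenger strands, miR-7a-1-3p had 10.6 to 27.6 CPM (median 22.7) in transgenic vehicle and 0 to 27.7 CPM (median 13.4) in wild type vehicle. The zero belongs to replicate 1, where a count of 0 allows up to 6.24 CPM. Its log2 difference was 0.30 (SE 0.41). miR-7a-2-3p had 11.1 to 18.9 CPM (median 14.1) in transgenic vehicle and 6.24 to 24.8 CPM (median 15.3) in wild type vehicle, with a log2 difference of -0.04 (SE 0.24). This passenger strand of Mir7-2 thus had equal means of 14.99 CPM in both groups and a wider spread in wild type. miR-7b-3p had 0.255 to 2.24 CPM (median 1.47) in transgenic vehicle and 0 to 2.19 CPM (median 1.41) in wild type vehicle, a log2 difference of 0.16 (SE 0.39). The edgeR adjusted p was 0.98 for miR-7a-1-3p and miR-7b-3p and 0.987 for miR-7a-2-3p.

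The Vorinostat comparison asked what the inhibitor did in transgenic mice. The guide strands had higher means and the passenger strands lower means with Vorinostat than with vehicle, except that miR-7b-5p turned to -0.000975 on the log2 scale with library totals, and none of the 5 passed the test. That is 2 members higher and 3 lower, where 49.3% of all miRNAs were higher and 50.7% lower. Of 605 miRNAs 0 (0%) passed and 21 (3.47%) had an unadjusted p under 0.05, again without a member; DESeq2 called 0 (26 unadjusted) and limma voom 0 (16 unadjusted). The median log2 difference was -0.29 over the 5 members and -0.01 over all miRNAs tested. The transgenic vehicle libraries serve both this comparison and the genotype comparison, on opposite sides.

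**Figure D1:**
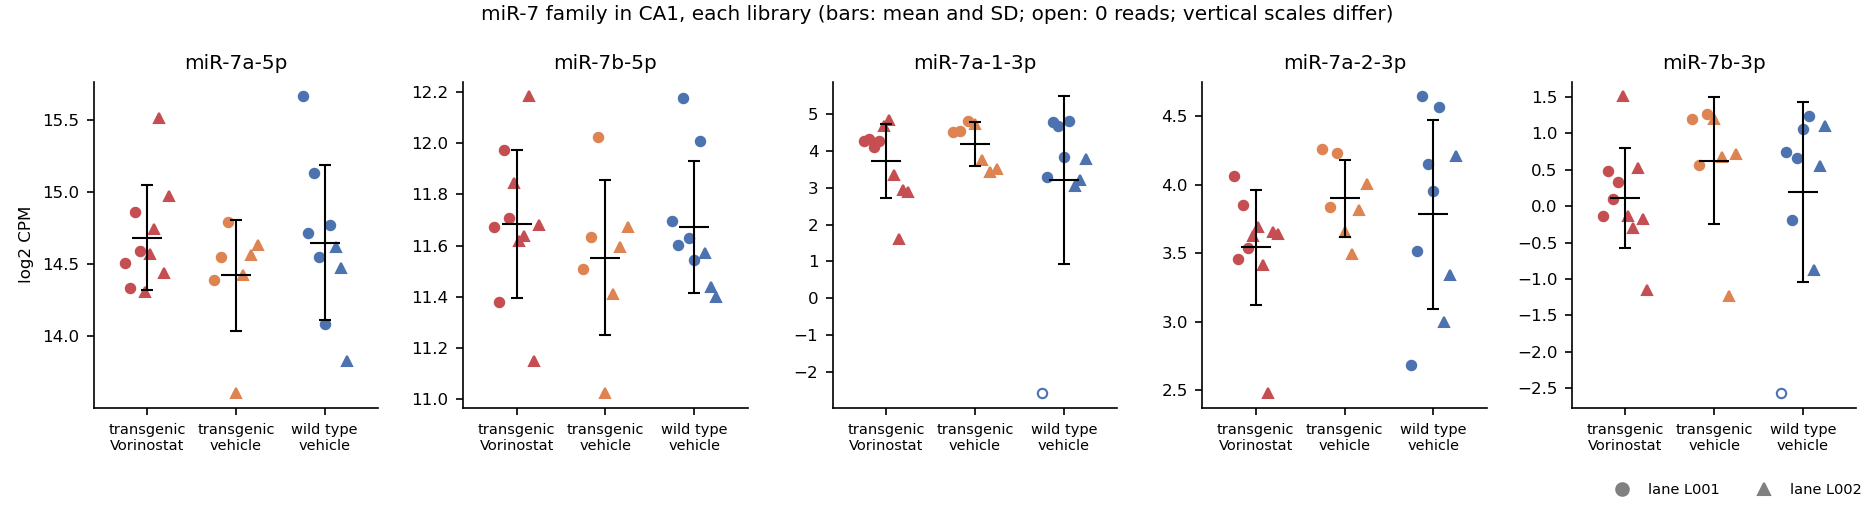
Log2 CPM of the 5 members in each library (vertical axis, with a prior count of 2 and a separate scale for each panel) by group, with bars for the mean and SD, circles for lane L001, triangles for lane L002 and an open symbol where a library had 0 reads. All groups overlap in each panel, and the zeros of miR-7a-1-3p and miR-7b-3p belong to wild type vehicle replicate 1.

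miR-7a-5p ranged from 20236 to 46861 CPM (median 24453) with Vorinostat and from 12449.9 to 28336 CPM (median 23999.7) with vehicle. The highest Vorinostat value came from replicate 8, one of the libraries that stood apart, and the lowest vehicle value from replicate 6. Vorinostat libraries averaged 27134 ± 7919 CPM (SD, n = 10) and vehicle libraries 22548 ± 5001 CPM (SD, n = 7), and the log2 difference was 0.27 (SE 0.21, 95% interval -0.17 to 0.71, edgeR adjusted p = 0.836). Without both libraries that stood apart it was 0.13. Lanes differed in sign, with -0.04 in L001 and 0.44 in L002.

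For miR-7b-5p the Vorinostat libraries spanned 2269 to 4646 CPM (median 3273) and the vehicle libraries 2083 to 4163 CPM (median 3096). These ranges nearly coincide. The log2 difference was 0.13 (SE 0.15, 95% interval -0.18 to 0.44, edgeR adjusted p = 0.836), with -0.08 in L001 and 0.26 in L002.

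miR-7a-2-3p, the passenger strand of Mir7-2, had 5.41 to 16.5 CPM (median 12.2) with Vorinostat and 11.1 to 18.9 CPM (median 14.1) with vehicle. Only 1 of the 10 Vorinostat libraries exceeded the vehicle mean of 14.99 CPM, yet the ranges overlapped. The log2 difference was -0.33 (SE 0.23, 95% interval -0.80 to 0.14, edgeR adjusted p = 0.836). It was -0.41 in L001 and -0.29 in L002.

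Its counterpart from Mir7-1, miR-7a-1-3p, had 2.86 to 28.5 CPM (median 18) with Vorinostat and 10.6 to 27.6 CPM (median 22.7) with vehicle. The 4 Vorinostat libraries below the lowest vehicle library, at 2.86 to 10.04 CPM, were all of lane L002. The log2 difference was -0.29 (SE 0.40, 95% interval -1.10 to 0.52, edgeR adjusted p = 0.836). miR-7b-3p had 0.283 to 2.67 CPM (median 0.826) with Vorinostat and 0.255 to 2.24 CPM (median 1.47) with vehicle, a log2 difference of -0.58 (SE 0.38, 95% interval -1.36 to 0.21, edgeR adjusted p = 0.836). Without Vorinostat replicate 5, the highest, it was -0.89 (edgeR unadjusted p = 0.0216, adjusted p = 0.671), and within lanes it was -0.93 in L001 (edgeR unadjusted p = 0.0497, adjusted p = 0.9997) and -0.30 in L002. Its values rest on medians of 8 reads per library with Vorinostat and 17 with vehicle.

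Vorinostat and transgenic vehicle libraries of the same number deviated together (r from 0.265 to 0.599), so they were also compared as 7 pairs. No label states that a shared number marks a pair. Libraries of the same number also lie near each other in the headers, at 28 and 29 for number 10 and 14 and 16 for number 5. Pairing and header position therefore cannot be told apart. The pairing was inferred from these same data, and libraries of unlike numbers were not compared. All results within pairs, here and below, depend on it. miR-7a-1-3p was lower with Vorinostat in 6 of 7 pairs (mean log2 difference -0.56, exact permutation p = 0.0469, two-sided). The largest of these differences, -2.15, was in pair 8, where Vorinostat replicate 8, which stood apart, had 9 reads. The mean without that pair was not computed. miR-7a-2-3p was lower in 5 of 7 (-0.41, exact permutation p = 0.0625) and miR-7b-3p in 5 of 7 (-0.46, exact permutation p = 0.25). The guide strands were split, with miR-7a-5p higher in 4 of 7 pairs (0.29, exact permutation p = 0.266) and miR-7b-5p higher in 4 of 7 (0.14, exact permutation p = 0.422). These p-values are not adjusted for the number of miRNAs. Fitted to these pairs alone, edgeR called 5 of 567 miRNAs with the pair as a block (147 at an unadjusted p under 0.05) and 0 without it (31 unadjusted). With the block in the model of all 26 libraries it called 0. They were miR-379-5p, miR-129-5p, miR-182-5p, miR-339-5p and miR-29c-3p, named after their values were seen. No member was among them: miR-7a-2-3p had an edgeR adjusted p of 0.173 and miR-7a-1-3p one of 0.206 there.

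The last comparison set Vorinostat-treated transgenic mice against wild type mice on vehicle. Both guide strands had nearly equal means here. miR-7a-5p averaged 27134 ± 7919 CPM in transgenic Vorinostat and 27388 ± 11036 CPM in wild type mice on vehicle (SD, n = 10 and n = 9). The log2 difference was -0.01 (SE 0.20, 95% interval -0.42 to 0.39). For miR-7b-5p the mean was 3349 ± 663 CPM in transgenic Vorinostat and 3316 ± 641 CPM in wild type vehicle, a log2 difference of 0.01 (SE 0.14, 95% interval -0.27 to 0.30). The interval of miR-7b-5p is the narrowest of the family.

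Among the passenger strands of that comparison, miR-7a-2-3p differed most for its error, at 11.9 ± 2.86 CPM in transgenic Vorinostat and 14.99 ± 6.66 CPM in wild type vehicle. The log2 difference was -0.37 (SE 0.22, edgeR unadjusted p = 0.0973). Without wild type vehicle replicate 1, which held 3 of its reads, it was -0.47 (edgeR unadjusted p = 0.0323, adjusted p = 0.884). miR-7a-1-3p differed by 0.01 (SE 0.37) and miR-7b-3p by -0.42 (SE 0.37), or by -0.72 without Vorinostat replicate 5 (edgeR unadjusted p = 0.0479, adjusted p = 0.995). The edgeR adjusted p was 0.9997 for all 5. By sign, 2 members were higher and 3 lower, against 52.9% and 47.1% of all miRNAs, but with library totals miR-7a-1-3p (-0.079) and miR-7b-5p (-0.080) were lower too. Over all 605 miRNAs 0 (0%) passed, with 19 (3.14%) at an unadjusted p under 0.05; DESeq2 called 0 (29 unadjusted) and limma voom 0 (23 unadjusted).

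**Figure D2:**
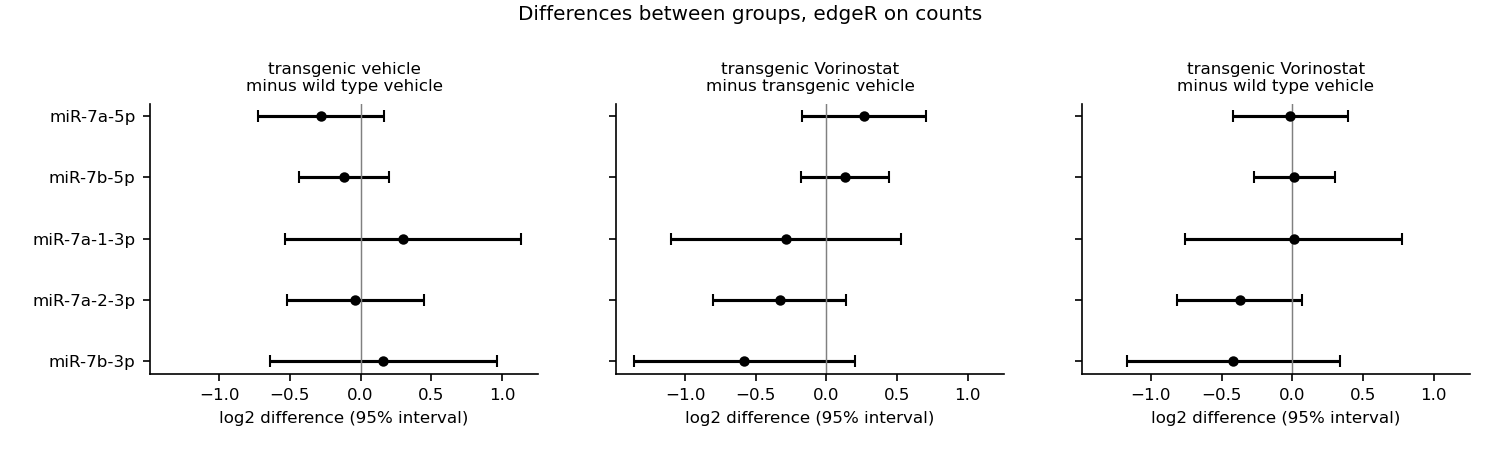
Log2 difference of each member (horizontal axis, edgeR on counts) with its 95% interval, in the 3 comparisons. Each interval crosses 0, and those of miR-7b-5p are the shortest.

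Ratios of members within a library do not depend on how libraries are scaled. The balance of the guide strands was close in all groups: miR-7a-5p had a median of 7.73 reads for each miR-7b-5p read with Vorinostat, 7.56 in transgenic vehicle and 7.75 in wild type vehicle. The highest ratio, 15.6, was that of wild type vehicle replicate 1, and the other libraries held 5.39 to 10.1. For the mean log2 ratio of miR-7b-5p to miR-7a-5p, the Vorinostat difference was -0.13 (exact permutation p = 0.272) and the genotype difference 0.11 (exact permutation p = 0.627).

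In each library with a passenger read, guide strands outnumbered each passenger strand by 477 to 1 or more. Median reads of miR-7a-5p for each miR-7a-1-3p read were 1521 with Vorinostat, 1037 in transgenic vehicle and 1288 in wild type vehicle, the last over the 8 libraries with such a read. For miR-7a-2-3p they were 1995 with Vorinostat, 1599.6 in transgenic vehicle and 1447 in wild type vehicle. For both passenger strands the Vorinostat median was thus the highest of the groups, but no test of these ratios passed after adjustment. Since miR-7a-5p itself comes from both loci, these ratios do not give the yield of a single hairpin.

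On the log2 scale the ratio of miR-7a-2-3p to miR-7a-5p averaged -11.2 ± 0.716 with Vorinostat (SD, n = 10) and -10.5 ± 0.355 with vehicle (SD, n = 7) in transgenic mice. The difference was -0.62 (exact permutation p = 0.0255, two-sided; adjusted p = 0.306 over the 12 ratio tests). None of the 12 tests passed after adjustment. Within pairs the ratio was lower with Vorinostat in 7 of 7, by -0.70 on average (exact permutation p = 0.0156, the smallest that 7 pairs can give; adjusted p = 0.0625 over the 4 ratios). Vorinostat replicate 8 held the lowest ratio, -13.0 against -10.9 in transgenic vehicle replicate 8. For the unpaired difference, leaving out single libraries gave -0.70 to -0.41, the latter without Vorinostat replicate 8. The paired difference was not computed without it. Within lanes the unpaired difference was -0.38 in L001 and -0.77 in L002.

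miR-7b-5p had a median of 3933 reads for each miR-7b-3p read with Vorinostat, 1902 in transgenic vehicle and 2101 in wild type vehicle. The log2 difference of miR-7b-3p to miR-7b-5p for Vorinostat was -0.68 (exact permutation p = 0.136, adjusted p = 0.544). The ratio of miR-7a-1-3p to miR-7a-5p gave -0.72 (exact permutation p = 0.23, adjusted p = 0.544) in the same comparison, and 0.92 for genotype (exact permutation p = 0.243, adjusted p = 0.544). Without Vorinostat replicate 8 the former was -0.39. Without wild type vehicle replicate 1, which had 0 reads of miR-7a-1-3p, the genotype difference was 0.36. Within pairs the ratio of miR-7a-1-3p to miR-7a-5p was lower with Vorinostat in 6 of 7, with a mean log2 difference of -0.85 (exact permutation p = 0.0469, adjusted p = 0.0938 over the 4 ratios). Its lowest value, -13.9 on 9 reads, was that of Vorinostat replicate 8, against -10.7 in transgenic vehicle replicate 8. The paired mean was not computed without that pair. The ratio of miR-7b-3p to miR-7b-5p was lower in 5 of 7 pairs, with a mean of -0.62 (exact permutation p = 0.266). None of these differences passed after adjustment.

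**Figure D3:**
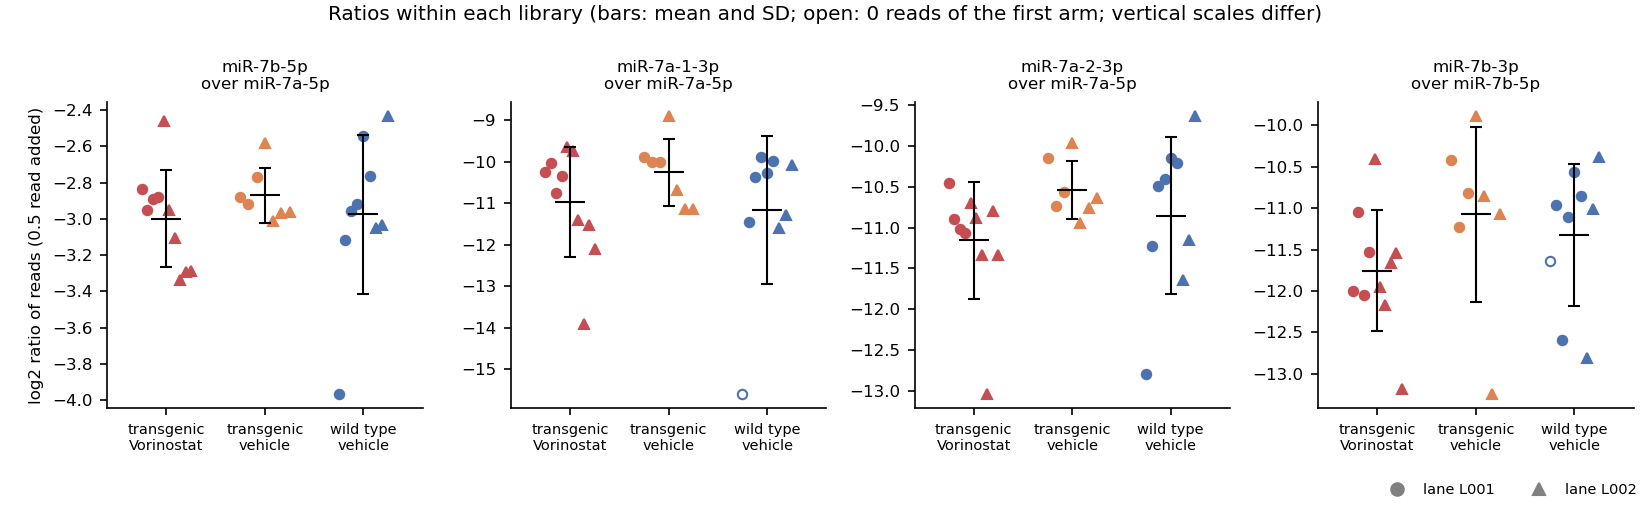
Log2 ratio of reads of one member to another in each library (vertical axis, 0.5 read added to each count, a separate scale for each panel) by group, with bars for the mean and SD and lanes by symbol. Points of all groups overlap, and wild type vehicle replicate 1 or Vorinostat replicate 8 is lowest in the first 3 panels.

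The 3p arms tell the 2 miR-7a loci apart, and on average both contributed similar numbers of passenger reads, with a wide spread between libraries. miR-7a-1-3p made up 53.0 ± 13.1% of miR-7a 3p reads with Vorinostat (SD, n = 10), 54.7 ± 9.67% in transgenic vehicle (SD, n = 7) and 44.4 ± 17.3% in wild type vehicle (SD, n = 9). In wild type vehicle replicate 1 it was 0 of 3 reads, with an exact binomial 95% interval up to 70.8%, which covers counting error only. That library has the same weight as the others in the wild type mean, which was not computed without it. The medians were 54.1% with Vorinostat, 54.5% in transgenic vehicle and 47.6% in wild type vehicle. Shares in the other libraries ran from 34.6% in Vorinostat replicate 8 to 69.1% in Vorinostat replicate 6.

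Levels of miR-7a-1-3p differed with the place of a library in the headers. Its mean was 19.4 CPM in lane L001 and 13.3 CPM in lane L002. Within L002 the 3 libraries with header numbers 16 to 18, of which 2 were Vorinostat and 1 transgenic vehicle, had 25.3 to 28.5 CPM, whereas the 10 libraries numbered 20 to 29, from all groups, had 2.86 to 13.4 CPM. This division was made after the values were seen. It is not particular to miR-7a-1-3p, since the first principal component of all miRNAs (59.2% of variance) divided in a like way. Its scores were 12.1, 4.18 and 13.99 for numbers 16 to 18. Numbers 20 to 29 had scores from -25.8 to -1.52, except 9.78 for number 25, wild type vehicle replicate 9, which also held the 13.4 CPM. miR-7a-2-3p did not divide in this way, with 12.2 to 12.8 CPM in the first 3 and 5.41 to 18.3 CPM in the 10. Both sets hold Vorinostat and transgenic vehicle libraries. The part of header position in the group differences was not tested.

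**Figure D4:**
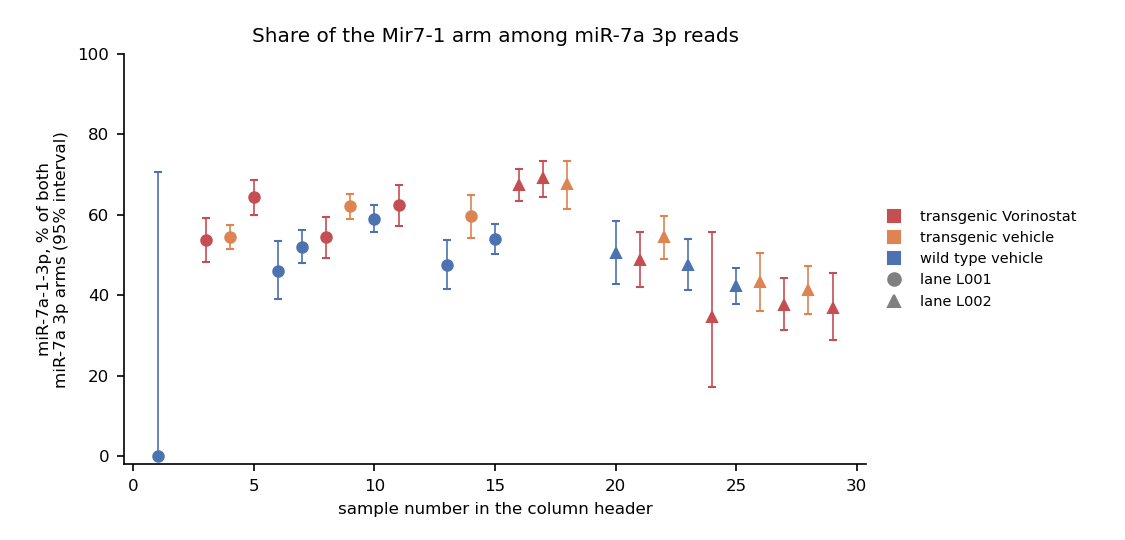
Share of miR-7a-1-3p among reads of both miR-7a 3p arms (vertical axis, percent, with exact binomial 95% intervals) against the sample number in the column header (horizontal axis), coloured by group and with lanes by symbol. Numbers 16 to 18 hold the highest shares, and the interval of number 1, wild type vehicle replicate 1, spans most of the axis.

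Across all 26 libraries the guide strands rose and fell together. Log2 CPM of miR-7a-5p and miR-7b-5p correlated with Pearson r = 0.703 (permutation p = 0.00012, adjusted 0.0006 over 5 relations) and Spearman rho = 0.769 (permutation p = 2e-05, adjusted 0.0001). Without the libraries farthest from the median of miR-7a-5p r was 0.728, and within lanes it was 0.537 in L001 (permutation p = 0.0561) and 0.791 in L002 (permutation p = 0.00264). How far reads that match both near-identical strands enter this correlation was not tested.

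Guide and passenger strands of the same hairpins gave correlations below 0 over all 26 libraries. miR-7a-5p and miR-7a-1-3p gave Pearson r = -0.595 (permutation p = 0.0021, adjusted 0.00525) but Spearman rho = -0.243 (permutation p = 0.229, adjusted 0.382). Without transgenic vehicle replicate 6 and wild type vehicle replicate 1, r was -0.32 (permutation p = 0.126), so over all libraries Pearson's r rested on them. Within lanes r was -0.682 in L001 (permutation p = 0.0644; rho = 0.0495) and -0.741 in L002 (permutation p = 0.00569; rho = -0.654, permutation p = 0.0175), each with 1 of those libraries. miR-7a-5p and miR-7a-2-3p gave r = -0.362 and rho = -0.111, with r = -0.32 in L001 and -0.652 in L002 (permutation p = 0.0212; rho = -0.385), and miR-7b-5p and miR-7b-3p r = -0.03 and rho = -0.07. With the log10 library total miR-7a-5p gave r = -0.547 (permutation p = 0.0069, adjusted 0.0115) and rho = -0.45 (adjusted 0.0542); leaving out both shallow libraries gave r = 0.0187 and rho = -0.301 (permutation p = 0.155), so r rested on them while the rank correlation kept its sign. Within lanes r was -0.745 in L001 (permutation p = 0.0182; rho = -0.379) and -0.4 in L002 (permutation p = 0.177; rho = -0.505).

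With TMM factors the miRNA most like each guide strand was the other one, which did not hold with library totals. By Spearman rho of log2 CPM over the 26 libraries, miR-7a-5p was followed most closely by miR-7b-5p (0.769), miR-410-5p (0.706), miR-412-5p (0.605), miR-1839-5p (0.597) and miR-99b-3p (0.595). The closest to miR-7b-5p were miR-7a-5p (0.769), miR-448-3p (0.538), miR-410-5p (0.497), miR-6958-3p (0.464) and miR-153-5p (0.437). With library totals in place of TMM factors the likeness of both guide strands was 0.544. miR-410-5p was then closer to miR-7a-5p (0.602), miR-448-3p was closer to miR-7b-5p (0.614), and miR-7a-5p was not among the 5 closest to miR-7b-5p. All libraries share these scaling factors, so the values are descriptions.

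Other miRNAs tied to miR-7 in the brain showed 0 of their listed members passing in each comparison. miR-671-5p, which directs cleavage of Cdr1as, averaged 5.66 ± 2.12 CPM with Vorinostat (SD, n = 10), 6.44 ± 1.66 CPM in transgenic vehicle (SD, n = 7) and 6.07 ± 2.36 CPM in wild type mice (SD, n = 9). The other arm of that hairpin, miR-671-3p, averaged 289 ± 177 CPM with Vorinostat, 194 ± 66.0 CPM in transgenic vehicle and 377 ± 524 CPM in wild type vehicle, with a genotype log2 difference of -0.94 (SE 0.47, edgeR adjusted p = 0.98). Medians lay closer: both arms summed to 224 CPM with Vorinostat, 159 in transgenic vehicle and 182 in wild type vehicle. The highest wild type library held 1767 CPM, and the difference was not computed without it. Also listed were miR-153-3p, known to repress alpha-synuclein, miR-34b-5p and miR-34c-5p, reported to do so in human cells, and miR-153-5p, the other arm of the miR-153 hairpins with another seed. All 4 had a higher mean in transgenic vehicle than in wild type vehicle, as did 54.4% of all miRNAs, with a median log2 difference of 0.33 against 0.03 over all. With Vorinostat 4 of the 4 were lower than with vehicle, as were 50.7% of all miRNAs, with a median of -0.30 against -0.01 over all. Both counts rest on the same transgenic vehicle libraries, and arms of the same hairpins are not separate evidence. Of the 6 neuroendocrine miRNAs (miR-375-3p and the miR-200 family), miR-141-3p, with 136 reads in all, was below the filter. Of the 5 tested, 4 were higher and 1 lower for genotype (median log2 difference 0.39), where 54.4% of all miRNAs were higher. For Vorinostat 3 were higher and 2 lower (0.04), where 49.3% of all were higher. In transgenic Vorinostat against wild type 4 were higher and 1 lower (0.45, with -0.13 for miR-375-3p), where 52.9% of all were higher. Whether members of the miR-200 family varied independently of each other was not tested.

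The authors' deposited normalized values gave another picture of the passenger strands. That table holds 674 miRNAs on a log2 scale, whose making the labels do not describe, and the same 3 comparisons were run on it with limma. It called 367 of 674 (54.5%) for genotype, 362 (53.7%) for Vorinostat and 6 (0.89%) for transgenic Vorinostat against wild type, where the counts gave 0 in each. Calls were higher in transgenic vehicle for 34.1% and lower for 20.3% of miRNAs, higher with Vorinostat than vehicle for 16.5% and lower for 37.2%, and higher for 0.148% and lower for 0.742% in transgenic Vorinostat against wild type. The median difference over all 674 was 0.19 for genotype and -0.24 for Vorinostat, against 0.03 and -0.01 in the counts, and the values of members below are to be read against these shifts.

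miR-7a-1-3p averaged 6.95 ± 0.523 in transgenic vehicle and 5.73 ± 1.22 in wild type vehicle on the authors' log2 scale, a difference of 1.23 (limma adjusted p = 0.0155). With Vorinostat it averaged 5.59 ± 0.670, which is -1.37 from transgenic vehicle (limma adjusted p = 0.00762). miR-7b-3p showed the same order, with 2.46 ± 0.157 in transgenic vehicle and 1.88 ± 0.468 in wild type vehicle (0.58, limma adjusted p = 0.00788). On these values all 7 transgenic vehicle libraries lay above all wild type libraries, where 7.57% of the 674 miRNAs had groups that did not overlap in either direction. In the counts the groups overlapped for miR-7b-3p. Transgenic vehicle replicate 9, with an authors' value of 2.30, had 2 reads (0.255 CPM). Wild type vehicle replicate 9, with an authors' value of 2.07, had 30 reads (1.985 CPM). For Vorinostat 13.6% of all miRNAs did not overlap, none of them a member. With Vorinostat miR-7b-3p averaged 1.86 ± 0.288, a difference of -0.60 from vehicle (limma adjusted p = 0.00552).

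miR-7a-2-3p averaged 3.57 ± 0.274 in transgenic vehicle and 3.15 ± 0.554 in wild type vehicle (0.42, limma adjusted p = 0.0891), and 2.73 ± 0.383 with Vorinostat (-0.84 from vehicle, limma adjusted p = 0.00296). Of the guide strands, miR-7a-5p was lower in transgenic vehicle than in wild type vehicle by this table, 14.3 ± 0.285 against 14.8 ± 0.423 (-0.50, limma adjusted p = 0.0181). Its Vorinostat difference was 0.39 (limma adjusted p = 0.0529), and miR-7b-5p gave -0.02 for genotype (limma adjusted p = 0.923) and -0.10 for Vorinostat (limma adjusted p = 0.552). Transgenic Vorinostat against wild type gave no member past the threshold (limma adjusted p from 0.385 to 0.991). When both libraries that stood apart were left out, the calls of these members held, with 0.88 for genotype and -1.21 for Vorinostat in miR-7a-1-3p.

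The gap between the authors' values and log2 CPM differed between members and, for some of them, between groups. For miR-7a-1-3p the authors' value exceeded log2 CPM by 1.86 ± 0.697 with Vorinostat, 2.78 ± 0.551 in transgenic vehicle and 2.53 ± 1.21 in wild type vehicle. For miR-7a-2-3p the gap was -0.81 ± 0.285 with Vorinostat, -0.33 ± 0.279 in transgenic vehicle and -0.64 ± 0.302 in wild type vehicle. The guide strand miR-7a-5p had gaps of -0.02 ± 0.288 with Vorinostat, -0.15 ± 0.275 in transgenic vehicle and 0.12 ± 0.268 in wild type vehicle. For miR-7b-5p they were -0.74 ± 0.218 with Vorinostat, -0.51 ± 0.117 in transgenic vehicle and -0.61 ± 0.141 in wild type vehicle. The gap of miR-7b-3p was 1.75 ± 0.560 with Vorinostat, 1.83 ± 0.787 in transgenic vehicle and 1.68 ± 0.867 in wild type vehicle. In wild type vehicle replicate 1, which had 0 reads of miR-7a-1-3p, the table lists 2.91, so its entries are not a plain rescaling of the counts. Across libraries log2 CPM and the authors' values of a member correlated with r from 0.705 to 0.789.

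**Figure D5:**
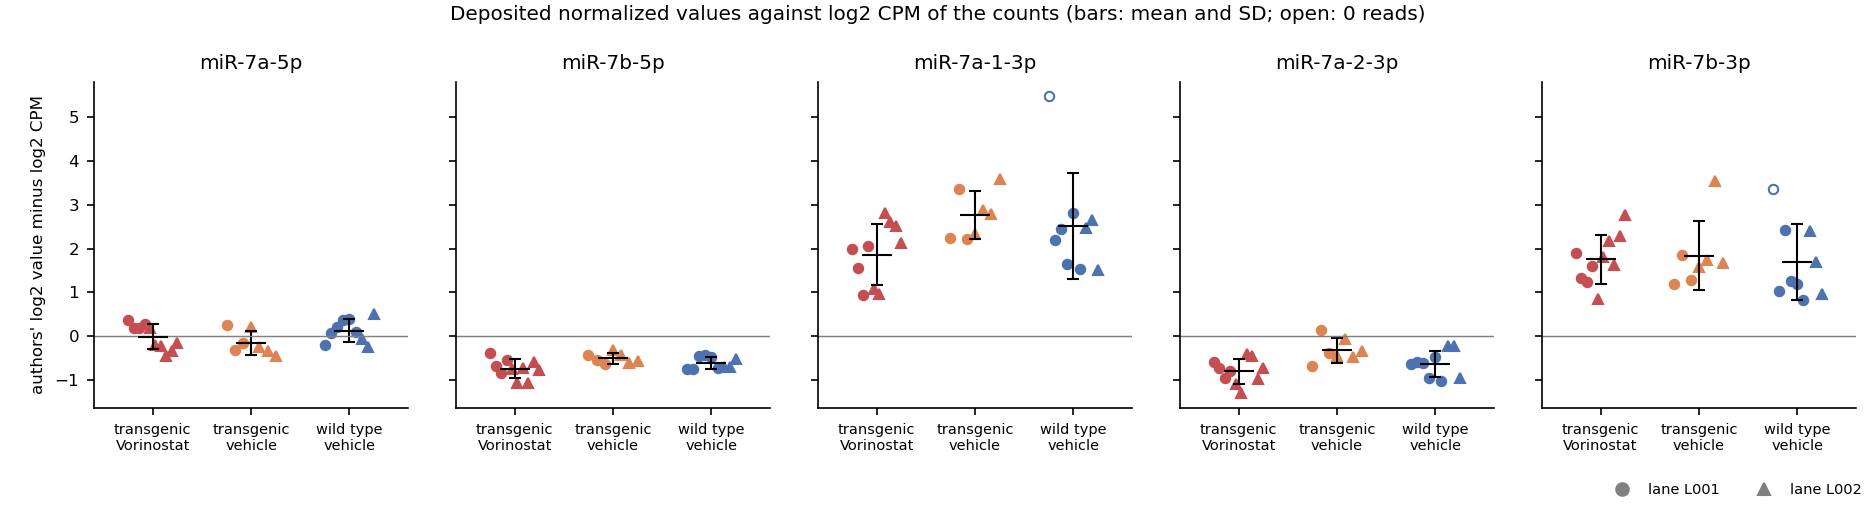
The authors' deposited log2 value minus log2 CPM of the counts in each library (vertical axis), by member and group, with bars for the mean and SD and lanes by symbol. The mean gap is highest in transgenic vehicle for each member except miR-7a-5p, for which it is lowest there. Open symbols mark the library with 0 reads.

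In the authors' deposited table of co-expression modules, the guide strand miR-7a-5p belonged to the blue module of 197 miRNAs with a membership of 0.59. That authors' deposited table put the other 4 members in the turquoise module of 404, with memberships of 0.96 for miR-7a-1-3p, 0.85 for miR-7a-2-3p, 0.82 for miR-7b-3p and 0.26 for miR-7b-5p. The guide strands were thus placed in different modules. These modules were built by the authors on the same libraries and are not independent of the values above.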

How the data were processed

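The members and lists were chosen with earlier results of these data known. Libraries of CA1 small RNA were made with a TruSeq kit and read as 50 bp single ends, per the labels' protocols. Per the submitters' processing notes, FastQC (version 0.11.5) and genome build mm10 were used; no aligner or counting rule is stated there. The authors deposited raw counts for each mature miRNA. They also deposited normalized log2 values, with no account of the normalization. The third deposited table holds, per the file headers, a score of membership in 5 modules and p-values of that membership, which were not used.

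In 1 model of all 26 libraries and 3 groups, edgeR (4.0.16, R 4.3.3) ran quasi-likelihood tests on the counts, two-sided, with TMM factors and filterByExpr (minimum count 10, total 15). Benjamini-Hochberg adjusted p-values under 0.05 passed. CPM are counts over the library total times the TMM factor; log2 CPM add a prior count of 2. DESeq2 1.42.0, voom of limma 3.58.1, other scalings and filters, lanes and left-out libraries were alternatives. Added after seeing the data were limma on the authors' log2 values and fits to the pairs alone, with and without a block. Ratios used 0.5 added read and exact permutation tests, relations 100000 resamples. The edgeR script was tested on simulated data.

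Totals of 0.585 to 24.8 M (mega-counts) set the precision of single libraries. The deviations of same-numbered Vorinostat and transgenic vehicle libraries from their group means correlated with r from 0.265 to 0.599 in 7 pairs. These numbers were therefore taken as pairs, although no label states so. Wild type numbers were not taken as pairs, with r from -0.451 to 0.458 with transgenic vehicle and -0.512 to 0.58 with Vorinostat. Libraries of unlike numbers were not compared, and the part of header position in these correlations was not tested. Named miRNAs are the 5 members, the listed miRNAs and the 5 with the highest Spearman rho to each guide strand. Sequences come from RefSeq on GRCm38.p6, and neighbouring genes from GENCODE M21 on GRCm38, the assembly that mm10 denotes.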

Additional observations from a re-analysis of the deposited data

Results flagged for a closer look

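Dixon's test at the 95% level was applied to 27 groups of values, and chance alone flags about 1 in 20; 6 were flagged. Vorinostat replicate 8 held 46861 CPM of miR-7a-5p, far above the other Vorinostat libraries, and its log2 ratio of miR-7a-2-3p to miR-7a-5p, -13.0, was far below theirs. In wild type vehicle replicate 1 the log2 ratio of miR-7b-5p to miR-7a-5p was -3.97 and that of miR-7a-1-3p to miR-7a-5p was -15.6, both far below the other wild type libraries. These are the 2 shallowest libraries, with 3.89 and 0.585 M (mega-counts). Vorinostat replicate 5 held 2.67 CPM of miR-7b-3p, above the other Vorinostat libraries. Transgenic vehicle replicate 9 had a log2 ratio of miR-7b-3p to miR-7b-5p of -13.2, below the other vehicle libraries, on 2 reads of miR-7b-3p.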

How the results depend on the processing

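All values here are log2 differences unless named otherwise. On counts, 0 miRNAs passed in each comparison under each scaling, filter, tool, lane and left-out library. The fit with the replicate block over all groups also gave 0, the block over the 7 transgenic pairs gave 5 for Vorinostat against 0 for the same pairs without it, and none of these called a member. The authors' log2 values gave 367, 362 and 6 calls for genotype, Vorinostat and transgenic Vorinostat against wild type, and 348, 384 and 19 without both libraries that stand apart; the cause was not tested.

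Signs turned mainly where the difference was near 0, in transgenic Vorinostat against wild type. For miR-7a-1-3p there it was -0.043 with RLE factors, -0.079 with library totals, -0.017 with upper quartile factors, -0.00860 without a filter, -0.00627 with a mean of at least 10 CPM, -0.026 in DESeq2, -0.00718 in limma voom, -0.040 within L001, -0.00870 without both libraries, and -0.14 or, without both libraries, -0.34 on the authors' values. For miR-7b-5p it was -0.060 with RLE factors and in DESeq2, -0.059 with upper quartile factors, -0.080 with library totals, -0.014 with a mean of at least 10 CPM, -0.13 within L001, -0.081 without both libraries, and -0.12 or -0.15 on the authors' values. For miR-7a-5p it was 0.023 without a filter, 0.053 in limma voom, 0.046 with lane as a covariate, 0.45 within L002, 0.00162 with the replicate block and 0.00637 without both libraries.

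For Vorinostat against vehicle, miR-7b-5p gave -0.000975 with library totals, -0.080 within L001 and -0.10 or -0.12 on the authors' values, and miR-7a-5p -0.043 within L001. For genotype, miR-7a-2-3p gave 0.017 in limma voom, 0.049 with lane as a covariate, 0.13 within L002 and 0.42 or 0.29 on the authors' values, and miR-7a-5p 0.00559 within L002. Ratios turned within lanes: miR-7b-5p to miR-7a-5p to 0.16 in L001 (transgenic Vorinostat against wild type) and -0.041 in L002 (genotype), miR-7a-2-3p to miR-7a-5p to 0.021 in L001 and miR-7a-1-3p to miR-7a-5p to -0.39 in L002, both against wild type with Vorinostat. The cause was not tested.

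Leaving out single libraries gave -0.13 to 0.12 for miR-7a-5p, -0.13 to 0.12 for miR-7a-1-3p and -0.056 to 0.065 for miR-7b-5p in transgenic Vorinostat against wild type, -0.13 to 0.094 for miR-7a-2-3p in genotype and -0.00601 to 0.22 for miR-7b-5p in Vorinostat. For the ratio of miR-7b-5p to miR-7a-5p it gave -0.15 to 0.045 in transgenic Vorinostat against wild type and -0.018 to 0.17 in genotype, and for miR-7a-1-3p to miR-7a-5p -0.35 to 0.53 in transgenic Vorinostat against wild type. Of the 5 miRNAs most like a guide strand, library totals kept 3 for miR-7a-5p and 0 for miR-7b-5p, and leaving out both libraries kept 3 each. Library totals leave a ratio within a library unchanged, so that alternative has no value of its own, and miR-7b-3p has none with a mean of at least 10 CPM. Depth limits miR-7b-3p most, at 0 to 55 reads a library.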
